A study of Homo sapiens with 21 samples.

Results

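The genes described here set whether pyruvate is oxidized in mitochondria or left for lactate. They were taken by symbol, as the pyruvate dehydrogenase kinases PDK1, PDK2, PDK3 and PDK4, the pyruvate dehydrogenase phosphatases PDP1 and PDP2, the E1 subunits PDHA1 and PDHB, and the mitochondrial pyruvate carrier subunits MPC1 and MPC2. All 10 genes had an identifier in the reference, and 9 of them had a row in each of the 4 expression tables, out of 20970 genes present in any of the tables. PDK4 had no value to analyse and is not analysed here. The rule uses symbols and no measured level, although the set was proposed with earlier results of these data known. All 9 passed the filter on low values in every table. On GRCh37 (hg19), the build of the study, PDK1 lies at chr2:173420101-173473397, PDK3 at chrX:24483361-24568583, PDP2 at chr16:66912492-66929657 and MPC2 at chr1:167885913-167906310, the last on the minus strand.

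RNA-seq of total RNA was carried out in 2 cancer cell lines, FADU, a squamous carcinoma line of the hypopharynx, and BFTC909, a urothelial carcinoma line of the renal pelvis, in 21 libraries. In each line, cells that received a scrambled siRNA (Scr-si) were held at 18% O2 (normoxia) or 1% O2 (hypoxia) for 18 h, and cells that received an siRNA against METTL4, a DNA adenine methyltransferase, were held at 1% O2 for 18 h (METTL4-si), with 2 libraries in each of these groups. FADU cells stably transfected with a control vector, with METTL4 (METTL4-OE) or with the long noncoding RNA RP11-390F4.3 (RP11-390F4.3-OE) were held at 18% O2, again with 2 libraries per group. Finally, a FADU CRISPR control and 2 FADU clones in which prime editing had changed the catalytic DPPW motif of METTL4 were held at 1% O2, with 1 library each, so that a clone and its mutation cannot be told apart. The columns taken as RP11-390F4.3-OE carry another name and were assigned because every other column of that table matched another group. All levels below are read counts scaled to library size by the trimmed mean of M values (TMM CPM), and a change is a difference of log2(CPM + 1), which understates the change of a low gene.

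Pyruvate dehydrogenase converts pyruvate into acetyl-CoA inside mitochondria, and its E1 component is a tetramer of PDHA1 and PDHB. The kinases phosphorylate serines of PDHA1 and switch the complex off, the phosphatases remove those phosphates and switch it on again, and the heterodimer of MPC1 and MPC2 brings pyruvate through the inner mitochondrial membrane. PDK1 is a textbook target of the hypoxia-inducible factor HIF-1, which binds the core hypoxia response elements ACGTG and GCGTG, and its induction is known to divert pyruvate towards lactate when oxygen is short.

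Both cores were therefore searched on either strand in the promoter windows of RefSeq (GRCh38.p14), which run from 250 bases before to 50 bases after a start site. The 14 windows of 9 genes of the set were compared with all 35116 windows. These 9 include PDK4, which has no expression value here, and leave out PDP1, for which there was no window. ACGTG or GCGTG was found in 9 of the 14 windows and in 17012 of all windows (48.4%), and ACGTG alone in 5 of the 14 and in 7518 of all (21.4%). Counted by gene, 8 of the 9 held either core, against 14318 of 27305 genes (52.4%). For each gene with ACGTG, 1 stretch that holds it is printed below from 5′ to 3′ on the strand of the gene, since they belong both to genes whose RNA changed with oxygen (PDK1, PDK3, PDP2) and to genes whose RNA did not pass the test (PDK2, PDHB). Capitals mark every match of either core in the stretch, and CACGTG is a match on both strands whose matches overlap.
PDK1 (chr2:172556062-172556089, plus strand): ctgctgcccgcCACGTccctCACGTacc
PDK3 (chrX:24465181-24465231, plus strand): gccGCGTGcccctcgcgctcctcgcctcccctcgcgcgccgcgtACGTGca
PDP2 (chr16:66880293-66880329, plus strand): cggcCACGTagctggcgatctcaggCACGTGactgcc
PDK2 (chr17:50095211-50095240, plus strand): ccgggggaagcCACGTGccggggcggaagg
PDHB (chr3:58434048-58434072, minus strand): caggCACGTGtgcccaGCGTGcacc
In PDK1 both matches stood between 17 and 4 bases before the start site of its second window, whereas its first window held none. Windows of MPC1, MPC2 and PDHA1 held GCGTG but no ACGTG, and the PDK4 window held neither core. These are matches of letters in a window, not measured binding sites.

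The libraries were first checked against their labels. Reads on genes ran from 17781791 to 25410656 per library. All 8 hypoxia genes of the check list (CA9, SLC2A1, NDRG1, ANKRD37, EGLN3, BNIP3, P4HA1, ADM) rose under 1% O2 in both lines (median log2 change 3.09 in FADU and 1.80 in BFTC909). METTL4 itself was at 26.6 and 25.3 in the FADU Scr-si hypoxia libraries and at 24.2 and 27.1 in the libraries labelled METTL4-si (log2 difference −0.02 ± 0.09 SE, adjusted p = 0.900 in limma), so no fall of the targeted RNA was measured there. In BFTC909 it was at 19.0 and 15.6 against 14.4 and 12.2 (−0.36 ± 0.13, adjusted p = 0.0717). In METTL4-OE it rose from 35.4 and 32.7 to 158 and 139.

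FADU libraries carried their squamous markers (TP63, KRT5, KRT14, KRT6A and DSG3 summed to between 1775 and 3333 in the knockdown table). In BFTC909, 2 of the 5 urothelial markers had a row, and their sum was between 11.2 and 29.0 in 5 libraries and 148 in METTL4-si replicate 2, where GATA3 was at 128. The 5 of 6 fibroblast markers with a row in BFTC909 summed to 1020 and 1114 in normoxia, 4447 and 4652 in hypoxia, and 2481 and 2680 with METTL4-si. In 3 libraries of the knockdown tables, markers of other cells stood above the rest. The 5 luminal breast markers summed to 364 in FADU METTL4-si replicate 1 and to 105 in FADU Scr-si normoxia replicate 1, against 23.0 to 35.5 in the other 4 libraries of that table, in which TFF1 was at 0. Urothelial markers (3 of 5 with a row) summed to 226 and 49.9 in these 2 libraries, against 6.78 to 11.3 in the other 4, with GATA3 at 216 and 41.1. Fibroblast markers (2 of 6 with a row) summed to 116 and 25.6, against 4.40 to 5.87, with COL3A1 at 109 and 20.3. The 3 of 4 epithelial markers with a row summed to 1121 in BFTC909 METTL4-si replicate 2 against 21.2 to 84.4 in the other 5, with no marker at 0 in any of them. Their part in the results was not tested, and the counts below are also given without these 3 libraries. In bulk RNA, fewer cells of a type and less RNA per cell cannot be told apart.

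Under hypoxia the RNA of the kinases PDK1 and PDK3 rose in both lines and that of the phosphatase PDP2 fell in BFTC909, while no E1 or carrier subunit changed by the threshold. A gene is called changed at 1.3-fold or more with an adjusted p under 0.05. In FADU, 2 of the 9 genes rose (PDK1 and PDK3) and none fell, beside 9.73% of the 16324 genes tested that rose and 9.65% that fell. In BFTC909, 2 rose (PDK1 and PDK3) and 1 fell (PDP2), beside 17.9% of 14869 genes that rose and 18.3% that fell. Without the libraries with markers of other cells, 1 gene rose in FADU (PDK1), and the BFTC909 count stayed at 3. The plot of levels in the knockdown libraries shows each of these values.

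**Figure D1:**
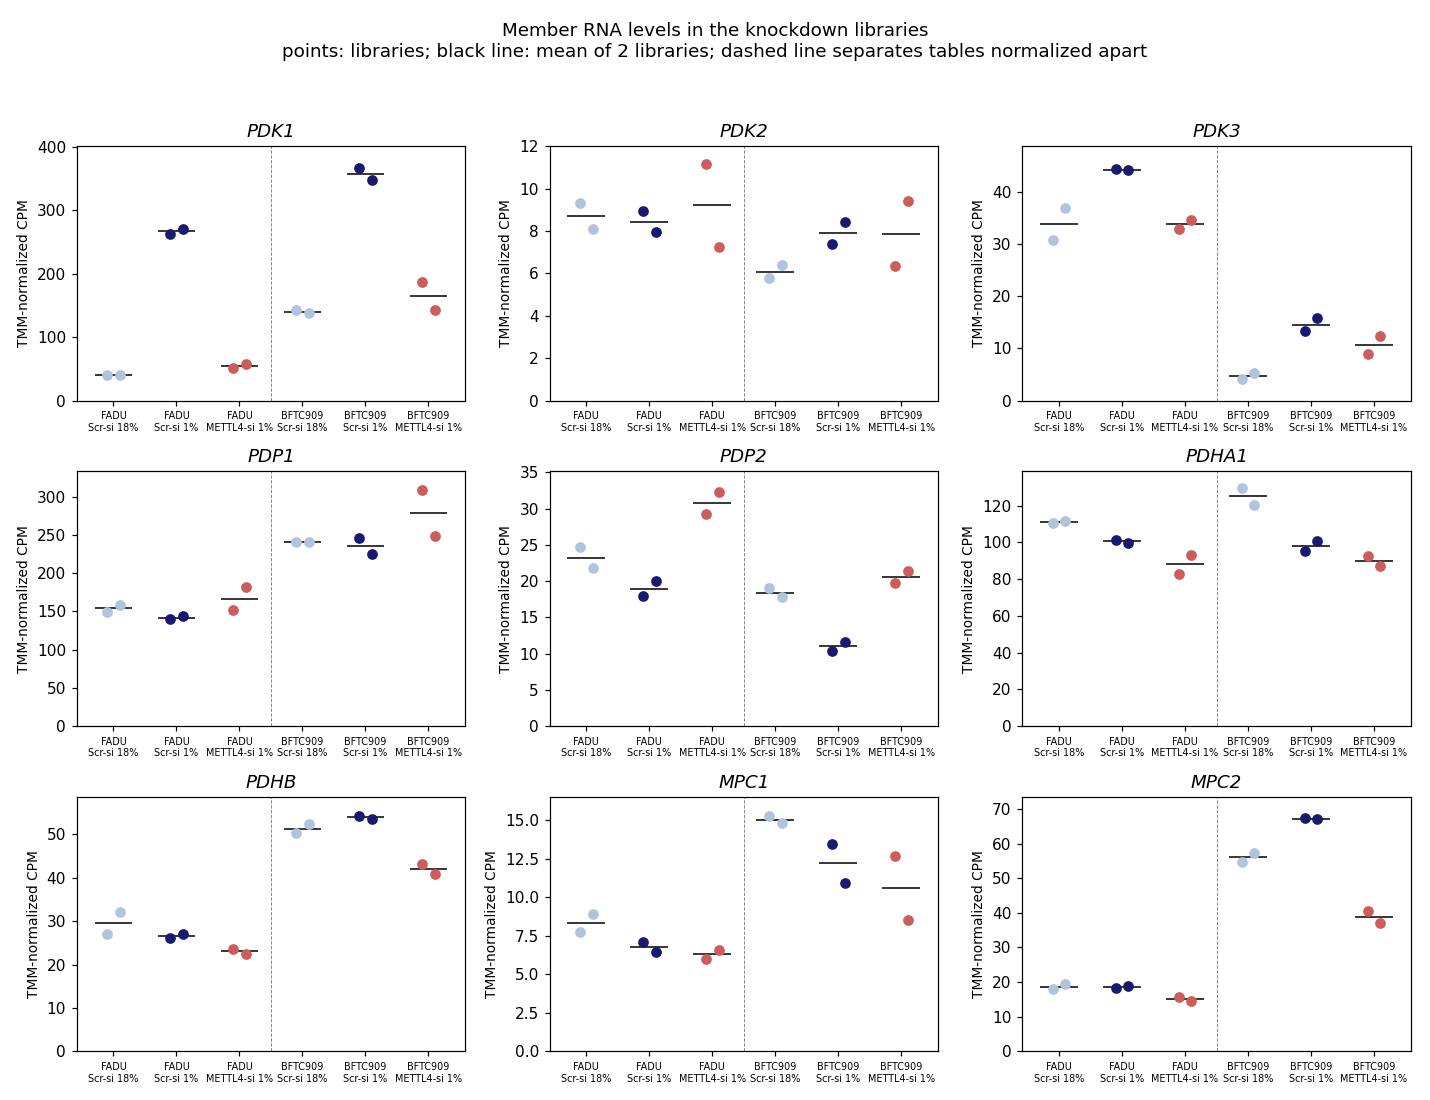
TMM CPM (linear axis from 0) of the 9 genes in the 12 knockdown libraries, 2 per group, with points for libraries, lines for means, and FADU and BFTC909 on either side of the dashed line because their tables were normalized separately. PDK1 lies highest in the Scr-si hypoxia libraries of both lines, at 263 and 271 in FADU and 366 and 348 in BFTC909, and PDP2 lies lowest there.

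PDK1, the HIF-1 target among the kinases, was at 39.7 and 40.1 in FADU normoxia and at 263 and 271 in hypoxia. The groups lay far apart and the replicates close together, and the difference was 2.71 ± 0.08 on the log2 scale, 6.55-fold (adjusted p = 2.00e-05, higher in 2 of 2 hypoxia libraries). In BFTC909, PDK1 already stood at 142 and 139 in normoxia and reached 366 and 348 (1.34 ± 0.12, 2.53-fold, adjusted p = 0.000185). The response was smaller in BFTC909 than in FADU by 1.37 ± 0.15 (adjusted p = 0.000308). PDK1-AS1, an antisense gene on the opposite strand of the same locus, moved alongside, from 1.33 and 1.43 to 7.55 and 7.34 in FADU. The library kit kept the strand, but whether counting used it is not given in the sources used here, so that reads of the pair cannot be told apart. PDK2 (with SAMD14), PDHA1 (with MAP3K15), MPC2 (with DCAF6) and PDHB also overlap a gene on the opposite strand.

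PDK3, a kinase with high activity towards the complex, was at 30.7 and 36.99 in FADU normoxia and at 44.5 and 44.1 in hypoxia. The groups did not overlap, but the rise of 0.38 ± 0.10, 1.31-fold, stood at the threshold (adjusted p = 0.0353). It fell short of 1.3-fold without FADU Scr-si normoxia replicate 1 (0.25, adjusted p = 0.189) and lost significance without either hypoxia library (adjusted p = 0.179 without replicate 1 and 0.184 without replicate 2). In BFTC909 the level was lower and the response larger, with 4.12 and 5.24 in normoxia against 13.2 and 15.8 in hypoxia (1.45 ± 0.18, 2.74-fold, adjusted p = 0.000749). The response was larger in BFTC909 by 1.07 ± 0.23 (adjusted p = 0.00747), the opposite order to that of PDK1. PDK2, the broadly expressed kinase, was at 9.31 and 8.09 against 8.94 and 7.94 in FADU and at 5.77 and 6.38 against 7.37 and 8.41 in BFTC909, and neither difference passed the test (adjusted p = 0.907 and 0.17).

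PDP2, a phosphatase known from liver and adipose tissue, was at 19.0 and 17.8 in BFTC909 normoxia and at 10.4 and 11.6 in hypoxia. All hypoxia values lay below all normoxia values, and the fall was −0.69 ± 0.10, 1.62-fold (adjusted p = 0.00153). In FADU the values were 24.6 and 21.8 against 17.9 and 19.98, also without overlap, but the difference of −0.28 ± 0.11 did not pass the test (adjusted p = 0.1004). The 2 lines were not shown to differ for PDP2 (−0.41 ± 0.15, adjusted p = 0.0663). Without the libraries with markers of other cells, which left 1 FADU normoxia library, the difference was −0.50. PDP1, the calcium-sensitive phosphatase, was at 149.5 and 159 against 139.8 and 143 in FADU and at 240.3 and 240.6 against 245 and 224 in BFTC909, with no difference that passed the test (adjusted p = 0.396 and 0.802).

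PDHA1, the E1 subunit that carries the regulatory serines, was at 110.4 and 111 against 101 and 99.7 in FADU (adjusted p = 0.211). In BFTC909 it was at 129.7 and 120.6 in normoxia and at 95.5 and 101 in hypoxia, a difference of −0.35 ± 0.07 with an adjusted p of 0.00685 that stayed under 1.3-fold (1.27-fold). PDHB, its partner, was at 26.9 and 32.0 against 26.1 and 27.0 in FADU and at 50.2 and 52.3 against 54.2 and 53.6 in BFTC909, and did not pass the test in either. MPC1 was at 7.77 and 8.89 against 7.10 and 6.43 in FADU (−0.26 ± 0.13, adjusted p = 0.171) and at 15.3 and 14.8 against 13.4 and 10.9 in BFTC909 (−0.29 ± 0.18, adjusted p = 0.227). MPC2 was at 18.0 and 19.5 against 18.4 and 18.8 in FADU (adjusted p = 0.968). In BFTC909 it went from 54.7 and 57.3 to 67.3 and 67.1, which had an adjusted p of 0.0246 but stayed under 1.3-fold (1.197-fold).

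The next comparison set METTL4-si against Scr-si at 1% O2, which asks which of these levels depend on METTL4 when oxygen is low. It shares its hypoxia libraries with the comparison above, so that an unusual hypoxia library would move both, in opposite directions. In FADU, 1 of the 9 genes rose (PDP2) and 2 fell (PDK1 and PDK3), beside 12.5% of all genes that rose and 15.3% that fell. In BFTC909, 1 rose (PDP2) and 2 fell (PDK1 and MPC2), beside 13.2% and 11.7%. Without the libraries with markers of other cells, which left 1 METTL4-si library in each line, both counts differed from these. Since no fall of METTL4 RNA was measured in FADU, the direction there rests on the label alone. In BFTC909 METTL4 was lower in the METTL4-si libraries, but the difference did not pass the test (log2 change −0.36). A fall of the targeted RNA was thus not shown by the test in either line. All 8 hypoxia genes of the check list fell with METTL4-si in both lines (median log2 change −3.16 in FADU and −1.52 in BFTC909), and their part in the results was not tested.

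PDK1 was at 51.6 and 58.2 in the FADU libraries labelled METTL4-si against 263 and 271 with Scr-si, a fall of −2.26 ± 0.08, 4.80-fold (adjusted p = 3.33e-05). In BFTC909 it was at 187 and 143 against 366 and 348 (−1.12 ± 0.12, 2.18-fold, adjusted p = 0.000605). Both METTL4-si libraries lay below both Scr-si libraries in each line, and the effect was smaller in BFTC909 by 1.14 ± 0.15 (adjusted p = 0.000802). PDK1-AS1 fell with it, to 0.638 and 0.934 in FADU (−2.25 ± 0.14, adjusted p = 0.000223) and to 3.47 and 3.17 in BFTC909 (−0.77 ± 0.14, adjusted p = 0.00592).

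PDK3 was at 32.9 and 34.7 in the FADU METTL4-si libraries against 44.5 and 44.1, a fall of −0.38 ± 0.10, 1.303-fold (adjusted p = 0.0273). The call was lost without either Scr-si hypoxia library (adjusted p = 0.143 without replicate 1 and 0.139 without replicate 2), and without METTL4-si replicate 1 the fall was under 1.3-fold (−0.35). In BFTC909 PDK3 was at 8.86 and 12.3 against 13.2 and 15.8, and did not pass the test (−0.43 ± 0.18, adjusted p = 0.107). With libraries centred on their median it did (−0.53, adjusted p = 0.0419). Without METTL4-si replicate 2, the library with epithelial markers, the change was −0.65, with 1 METTL4-si library left. PDK2 was at 11.2 and 7.25 in FADU and at 6.33 and 9.41 in BFTC909, and its 2 METTL4-si libraries spanned the Scr-si values in both lines.

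PDP2 was at 29.2 and 32.3 in the FADU METTL4-si libraries against 17.9 and 19.98, and rose by 0.67 ± 0.11, 1.59-fold (adjusted p = 0.00434). In BFTC909 it was at 19.7 and 21.3 against 10.4 and 11.6 (0.84 ± 0.10, 1.79-fold, adjusted p = 0.00111). Every METTL4-si value stood above every Scr-si hypoxia value in both lines, and the effects were not shown to differ between lines (0.17 ± 0.15, adjusted p = 0.433). In FADU the adjusted p was 0.0503 without Scr-si hypoxia replicate 1. PDP1 was at 151 and 182 against 139.8 and 143 in FADU (adjusted p = 0.113) and at 308 and 248 against 245 and 224 in BFTC909 (adjusted p = 0.122). Without METTL4-si replicate 2 the PDP1 change in BFTC909 was 0.39, with 1 METTL4-si library left and the spread taken from the Scr-si libraries.

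MPC2 was the carrier subunit that changed. In BFTC909 it was at 40.5 and 37.2 with METTL4-si against 67.3 and 67.1 with Scr-si, a fall of −0.78 ± 0.07, 1.71-fold (adjusted p = 0.000413). In FADU it was at 15.8 and 14.6 against 18.4 and 18.8 and did not pass the test (−0.28 ± 0.09, adjusted p = 0.0598), and the fall was larger in BFTC909 by −0.50 ± 0.11 (adjusted p = 0.00978). MPC1 was at 12.7 and 8.56 against 13.4 and 10.9 in BFTC909 and at 6.02 and 6.59 against 7.10 and 6.43 in FADU, with overlapping groups in both. PDHB was at 43.1 and 40.7 against 54.2 and 53.6 in BFTC909 (−0.35 ± 0.07, 1.28-fold, adjusted p = 0.00885), under 1.3-fold, and PDHA1 did not pass the test in either line (adjusted p = 0.0913 and 0.222).

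**Figure D2:**
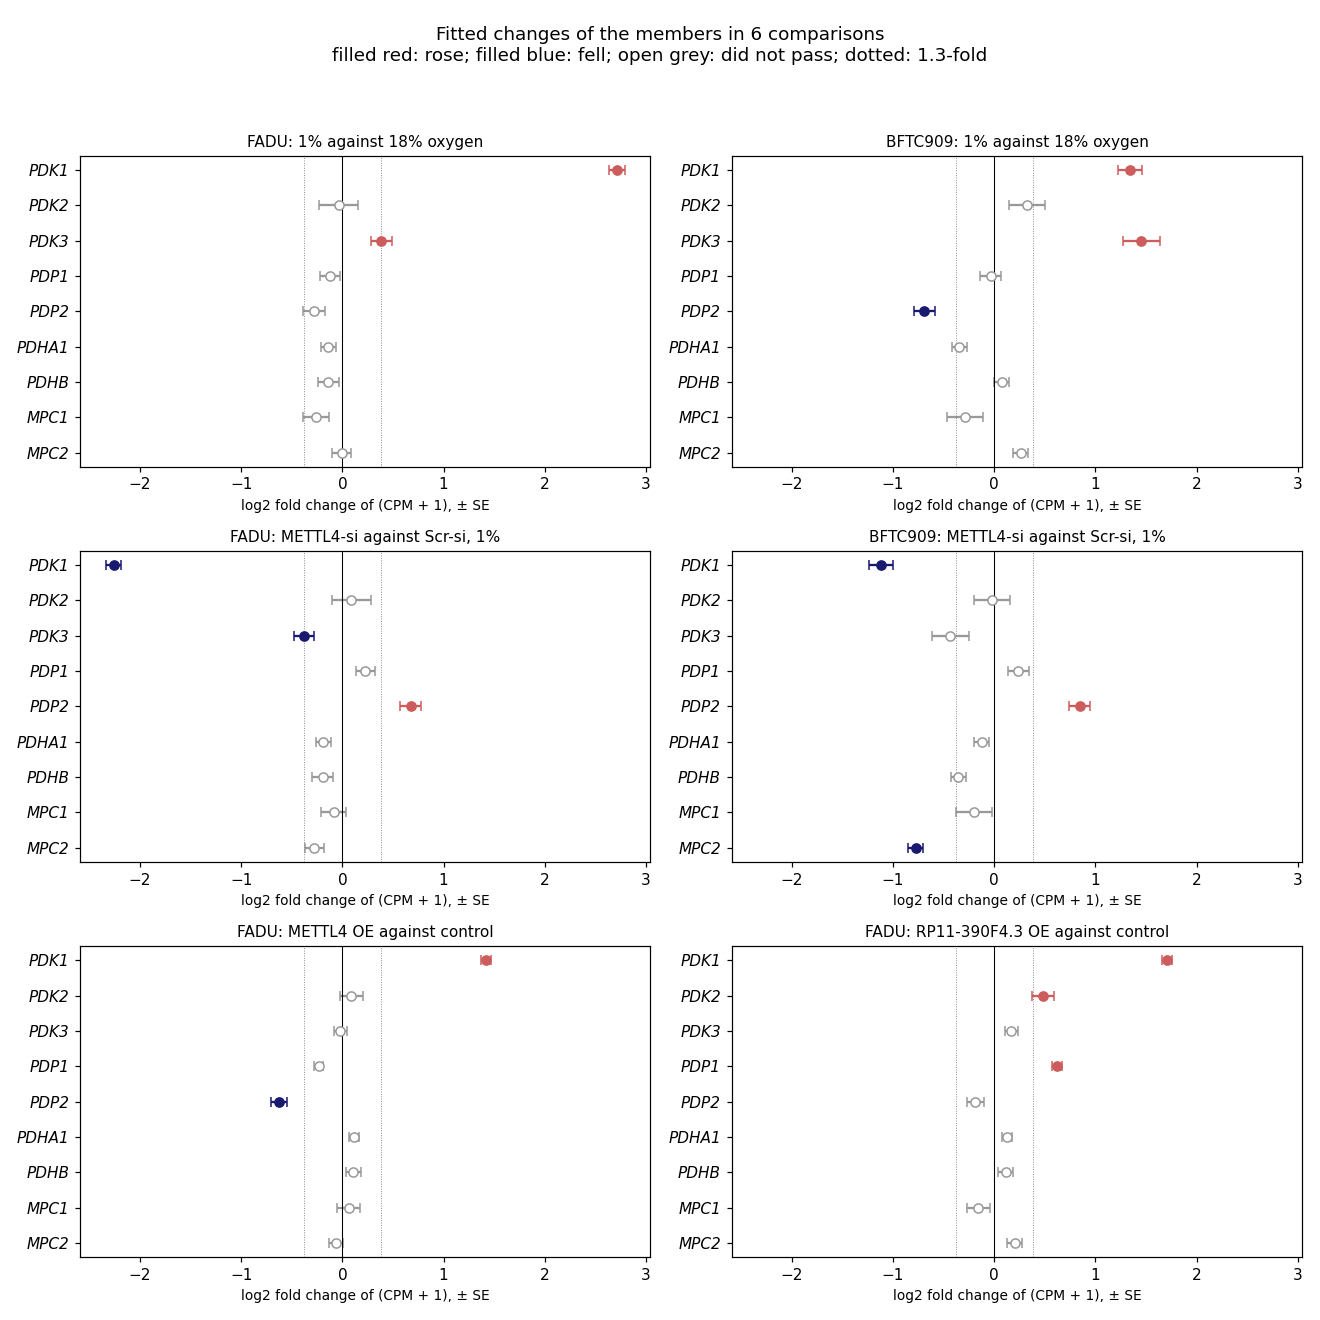
Change of each gene on the log2(CPM + 1) scale with its standard error in 6 comparisons of 2 against 2 libraries, with filled red points for genes that rose, filled blue points for genes that fell and open points for genes that did not pass the test; dotted lines mark 1.3-fold. PDK1 passed in all 6, from −2.26 to 2.71, and PDHA1, PDHB and MPC1 in none of them.

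The METTL4-si libraries were also set against normoxia, to say where the levels lay after 18 h at 1% O2. The hypoxia genes of the check list stood near normoxia in FADU (median log2 difference 0.01, 1 of 8 rose and none fell), and in BFTC909 4 rose and 1 fell (median 0.35). In FADU, 2 of the 9 genes rose and none fell, beside 8.13% and 13.5% of all genes. PDK1 stayed above normoxia by 0.45 ± 0.08 (1.37-fold, adjusted p = 0.00822), and PDP2 stood above it by 0.39 ± 0.11 (1.31-fold, adjusted p = 0.0364). Neither call held without a normoxia library, with adjusted p of 0.0649 and 0.0709 for PDK1 and of 0.0892 and 0.216 for PDP2 without replicate 1 and replicate 2. Without METTL4-si replicate 2 both fell short of 1.3-fold (0.36 and 0.32), and PDP2 was also lost without either Scr-si hypoxia library (adjusted p = 0.0757 and 0.0762). Without the libraries with markers of other cells, the differences were −0.49 for PDHB and −0.39 for MPC2. That fit left 1 library in each group compared, and its spread came from the Scr-si hypoxia libraries alone. In BFTC909, 1 gene rose and 2 fell, beside 24.4% and 23.2%. PDK3 stayed above normoxia (1.02 ± 0.18, 2.03-fold, adjusted p = 0.00241), whereas PDHA1 (−0.47 ± 0.07, 1.39-fold, adjusted p = 0.00124) and MPC2 (−0.52 ± 0.07, 1.43-fold, adjusted p = 0.000942) lay below it. PDK1 did not differ from normoxia by the test (0.22 ± 0.12, adjusted p = 0.152). Without METTL4-si replicate 2 its difference was 0.41, with 1 METTL4-si library left.

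Over the genes tested in both lines, the hypoxia effect of 1 gene of the set was higher in BFTC909 (PDK3) and that of 1 was lower (PDK1), beside 11.0% and 12.8% of 13595 genes. The METTL4-si effect was higher, that is less negative, for 1 gene (PDK1) and lower for 1 (MPC2), beside 14.4% and 9.12%. In each case a count of 1 of the 9 genes is near the share of all genes. Without the libraries with markers of other cells, 3 and 2 genes differed.

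Overexpression in normoxia asks whether METTL4 or RP11-390F4.3 moves these genes without a lack of oxygen. The 2 comparisons share the control libraries. With METTL4-OE, 1 of the 9 genes rose (PDK1) and 1 fell (PDP2), beside 8.00% of 15644 genes that rose and 10.5% that fell. With RP11-390F4.3-OE, 3 rose (PDK1, PDK2 and PDP1) and none fell, beside 16.5% and 12.5%. All 8 hypoxia genes of the check list rose in both comparisons, although the cells were held at 18% O2 (median log2 change 1.76 with METTL4-OE and 2.43 with RP11-390F4.3-OE), and their part in the results was not tested.

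PDK1 was at 39.9 and 38.2 in the control, at 104 and 108 with METTL4-OE (1.42 ± 0.05, 2.68-fold, adjusted p = 9.39e-11) and at 128 and 131 with RP11-390F4.3-OE (1.71 ± 0.05, 3.26-fold, adjusted p = 9.63e-12). None of the 3 groups overlapped. PDK2 was at 7.63 and 8.79 in the control, at 8.002 and 9.61 with METTL4-OE and at 11.8 and 11.9 with RP11-390F4.3-OE, where it rose by 0.48 ± 0.11 (1.40-fold, adjusted p = 0.00268), a rise that stayed under 1.3-fold with a pseudocount of 5 (0.35). PDK3 was at 38.1 and 38.4, 35.8 and 39.5, and 42.0 and 44.4, and with RP11-390F4.3-OE its difference had an adjusted p of 0.0387 at 1.12-fold.

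PDP2 was at 25.2 and 24.8 in the control, fell to 14.8 and 17.0 with METTL4-OE (−0.63 ± 0.08, 1.54-fold, adjusted p = 3.67e-05) and was at 21.7 and 21.9 with RP11-390F4.3-OE (−0.19 ± 0.08, adjusted p = 0.0664). PDP1 was at 157.5 and 148 in the control, at 131 and 128 with METTL4-OE (−0.24 ± 0.05, 1.18-fold, adjusted p = 0.00134, under 1.3-fold) and at 239.5 and 230.4 with RP11-390F4.3-OE, where it rose by 0.62 ± 0.05 (1.54-fold, adjusted p = 1.61e-07). The difference between both overexpressions was not tested. PDHA1, PDHB, MPC1 and MPC2 did not change by 1.3-fold in either, with MPC2 at 20.4 and 20.1 in the control and 24.0 and 22.9 with RP11-390F4.3-OE (1.15-fold, adjusted p = 0.0320).

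**Figure D3:**
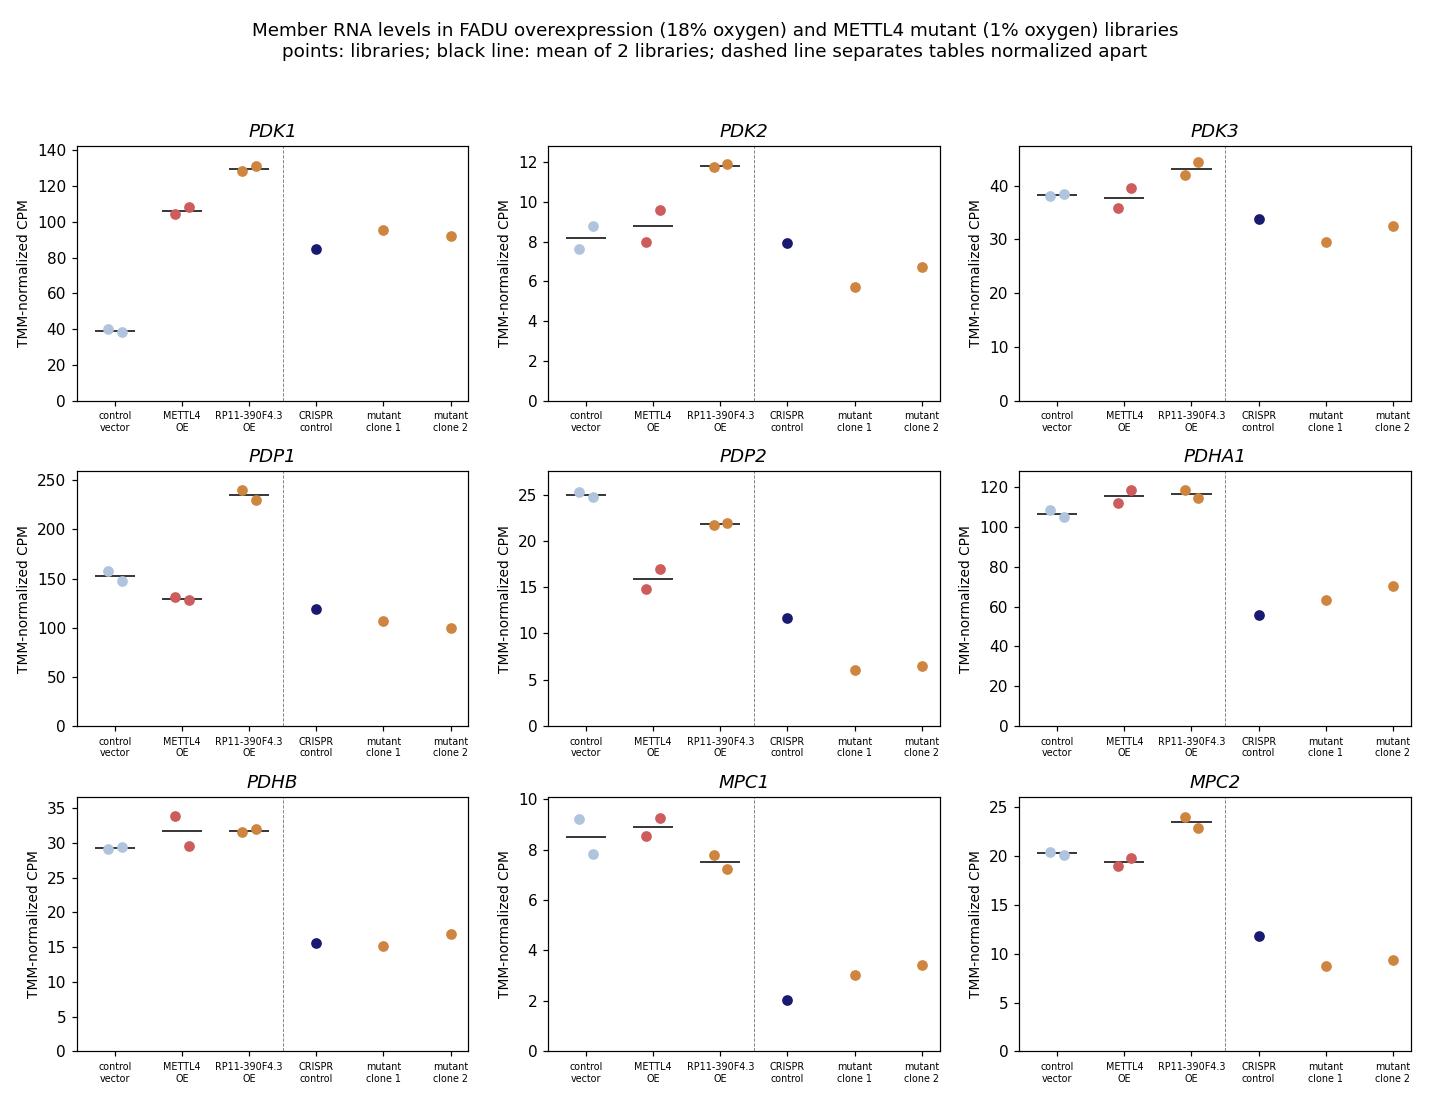
TMM CPM (linear axis from 0) of the 9 genes in the 6 FADU overexpression libraries at 18% O2 (2 per group, lines for means) and, right of the dashed line, in the CRISPR control and the 2 METTL4 mutant clones at 1% O2 (1 library each), from a table normalized separately. PDK1 is higher in both overexpression groups than in their control, lies within 84.9 to 95.3 in the other 3 libraries, and PDP2 is lowest in the 2 clones.

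The METTL4 mutant clones had 1 library each and 1 control library, so that no test was possible and the values describe these libraries. In both clones 1 gene (MPC1) was higher than the control by 1.3-fold or more and 1 (PDP2) was lower, beside 10.3% and 11.7% of 13461 genes. A count of 1 of the 9 genes is near the share of all genes in both directions. PDK1 was at 84.9 in the control and at 95.3 and 92.1 in clone 1 and clone 2, so it was not lower in either clone. No mutant or CRISPR control library was at 18% O2, so how far 1% O2 raised PDK1 cannot be read. The log2 ratios of the hypoxia check genes in clone 1 and clone 2 went both ways. They were −1.44 and −0.93 for CA9, −0.89 and −0.89 for NDRG1, −0.27 and −0.19 for P4HA1, and −0.03 and −0.23 for SLC2A1. They were 0.11 and 0.28 for ANKRD37, 0.37 and 0.36 for EGLN3, 0.12 and 0.17 for BNIP3, and 0.48 and 0.30 for ADM. Their part was not tested. PDP2 was at 11.7 against 6.05 and 6.44, log2 ratios of −0.85 and −0.77 (1.80-fold and 1.70-fold lower). MPC1 was at 2.03 against 3.01 and 3.44 (1.32-fold and 1.46-fold higher), at 67 to 108 reads. With a pseudocount of 5 MPC1 stayed under 1.3-fold, whereas PDP2 did not. PDK2 was at 7.92 against 5.72 and 6.73, PDK3 at 33.7 against 29.5 and 32.5, and PDP1 at 119 against 107 and 99.4. PDHA1 was at 55.9 against 63.4 and 70.3, PDHB at 15.6 against 15.1 and 16.9, and MPC2 at 11.8 against 8.70 and 9.34. PDP2 was thus lower in the edited clones at 1% O2, whereas it was higher in the libraries labelled METTL4-si at 1% O2, and the difference between these contrasts was not tested.

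To compare kinases with each other, each level was divided by the length of the gene in kb, once as the union of all exons and once as the canonical transcript, since the annotation used for counting is not stated. For PDK3 these lengths differ widely (17.5 and 1.74 kb), against 14.8 and 14.1 kb for PDK1 and 5.47 and 3.36 kb for PDK2, so the order of kinases depends on the choice. Per kb of union exon, PDK1 made up 43.2% ± 0.48 (SD, n = 2) of the summed kinase level in FADU normoxia and 81.5% ± 0.86 in hypoxia. Per kb of canonical transcript the same shares were 11.4% ± 0.98 and 40.4% ± 0.82, with PDK3 the leading kinase at 78.1% and 54.3%. In BFTC909, PDK1 led under both lengths, with 87.3% ± 1.2 and 91.3% ± 1.1 per union kb and 69.0% ± 3.2 and 70.4% ± 3.2 per canonical kb, so its share differed by more than the replicate spread only per union kb. PDK2 stayed between 5.04% and 27.7% of the sum per union kb over all knockdown libraries.

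The summed kinase level per kb divided by the summed phosphatase level per kb was highest in the hypoxia libraries of both lines under both lengths. In FADU this ratio was 0.207 and 0.203 in normoxia, 0.806 and 0.794 in hypoxia, and 0.243 and 0.198 in the METTL4-si libraries, per union kb. In BFTC909 it was 0.240 in both normoxia libraries, 0.594 and 0.624 in hypoxia, and 0.248 and 0.257 with METTL4-si. Per union kb the METTL4-si libraries thus lay nearer to normoxia than to hypoxia in both lines. Per canonical kb the hypoxia ratios were 1.31 and 1.27 against 0.595 and 0.649 in FADU and 0.599 and 0.660 against 0.237 and 0.247 in BFTC909. With METTL4-si they were 0.647 and 0.547 in FADU, where they overlapped with normoxia, and 0.266 and 0.323 in BFTC909, above both normoxia libraries. An exact permutation test of 2 against 2 libraries cannot go below p = 0.333, and none was run.

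With METTL4-OE the ratio per union kb was 0.419 and 0.454 against 0.201 and 0.217 in the control. With RP11-390F4.3-OE, where PDP1 rose as well, it was 0.291 and 0.309, and per canonical kb it was 0.612 and 0.663 against 0.657 and 0.709, so it was above the control per union kb and overlapped with it per canonical kb. In the CRISPR control it was 0.400, and in clone 1 and clone 2 it was 0.462 and 0.502. PDP1 held between 88.4% and 97.2% of the summed phosphatase level per union kb in the knockdown libraries, so that PDP2, the phosphatase that changed most often, was the smaller part of it.

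**Figure D4:**
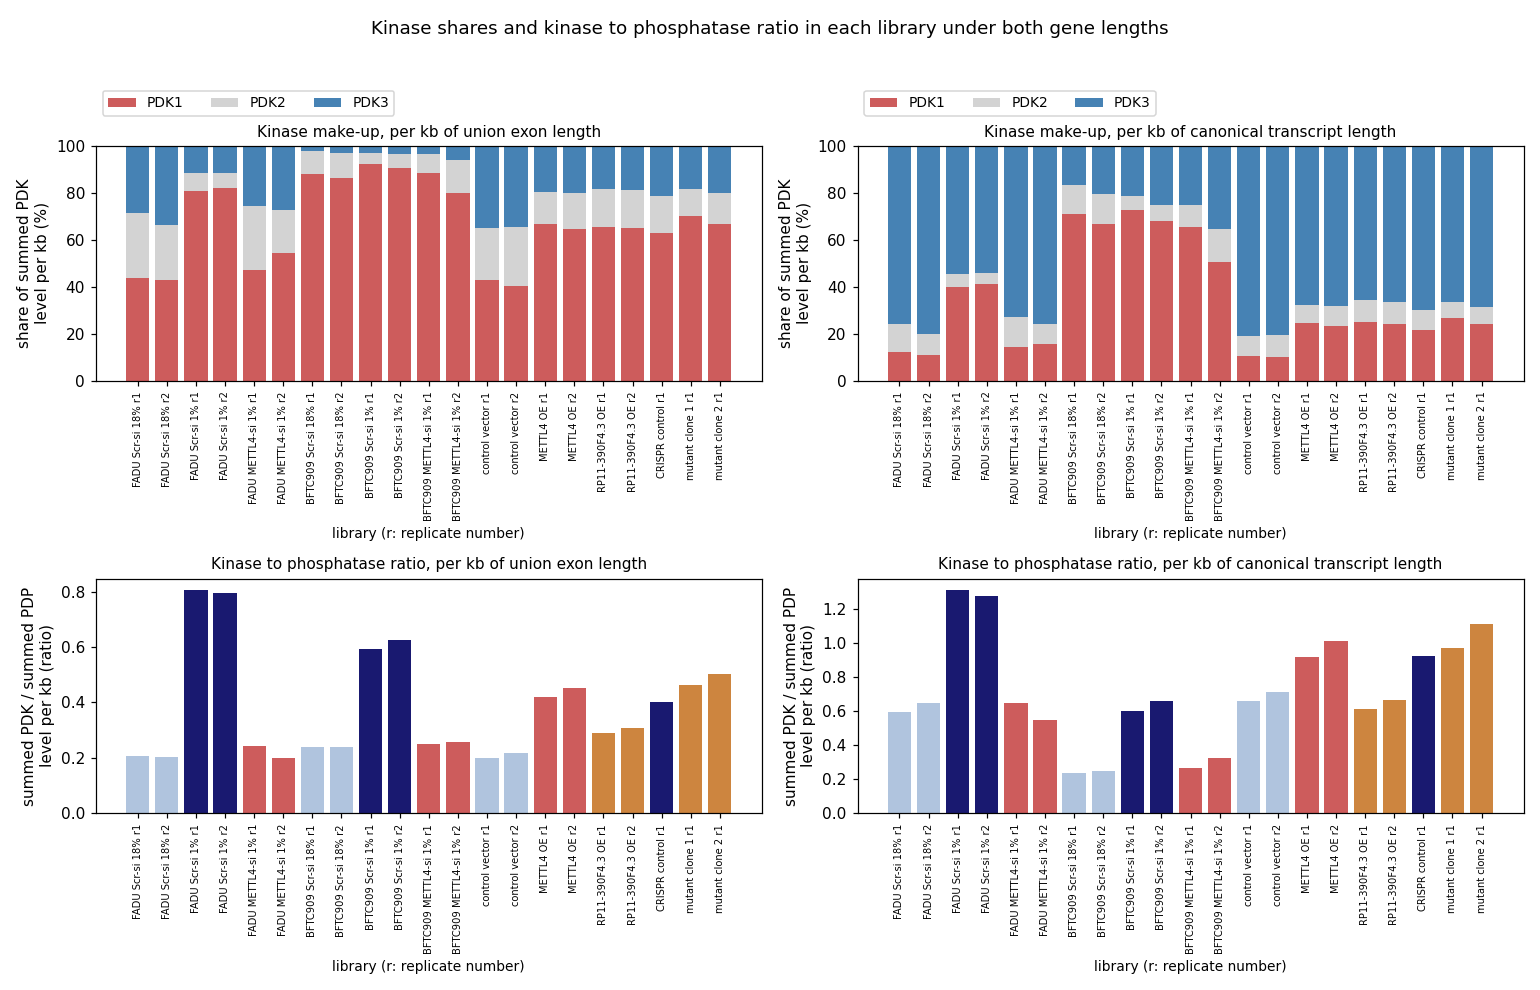
Share of PDK1, PDK2 and PDK3 in the summed kinase level per kb (upper row, %) and ratio of summed kinase to summed phosphatase level per kb (lower row, linear axes from 0 that differ between left and right) in each of the 21 libraries, per kb of union exon length on the left and of canonical transcript length on the right. The Scr-si hypoxia libraries have the highest ratios of each line under both lengths (0.806 and 0.794 in FADU per union kb), while the leading kinase in FADU depends on the length.

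The rest of the pathway was counted in fixed lists, to be read against the shares of all genes tested. In hypoxia 9.73% of all genes rose and 9.65% fell in FADU, and 17.9% and 18.3% in BFTC909. With METTL4-si 12.5% rose and 15.3% fell in FADU, and 13.2% and 11.7% in BFTC909. With METTL4-OE 8.00% rose and 10.5% fell, and with RP11-390F4.3-OE 16.5% and 12.5%. For the other fates of pyruvate, 10 of 12 listed genes were tested, and in FADU hypoxia 3 rose and 1 fell (median log2 change 0.08, against −0.03 over all genes tested), in BFTC909 3 rose and 2 fell (0.10 against −0.02). Lactate dehydrogenase A (LDHA) rose by 1.47 ± 0.07 and 0.71 ± 0.11, and SLC16A3, the lactate exporter, by 1.66 ± 0.08 and 0.81 ± 0.11 in FADU and BFTC909. With METTL4-si, 2 rose and 4 fell in FADU (median −0.25 against 0.02) and none rose and 6 fell in BFTC909 (−0.48 against 0.01), with LDHA at −2.36 ± 0.07 and −1.30 ± 0.11. With METTL4-OE 3 rose and 3 fell, and with RP11-390F4.3-OE 3 rose and 1 fell, and LDHA rose by 1.31 ± 0.05 and 1.24 ± 0.05.

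Among the other genes of the complex (4 of 5 tested), none changed in FADU hypoxia (median −0.10), and 2 fell in BFTC909 hypoxia (median −0.41). These were DLAT, the acetyltransferase core of the complex (−0.89 ± 0.11), and PDHX, its E3-binding protein (−0.46 ± 0.10). With METTL4-si DLAT fell in FADU (−0.44 ± 0.07, with a list median of −0.27) and none changed in BFTC909 (median −0.08), nor did any with METTL4-OE or RP11-390F4.3-OE. Of the genes for cofactor supply, which make lipoate and bring in thiamine, 1 of 7 rose and 5 fell in BFTC909 hypoxia (median −0.61), among them SLC19A2, a thiamine transporter of the cell membrane (−0.63 ± 0.14). With METTL4-si 2 of 8 rose in FADU (median 0.25) and 5 of 7 rose in BFTC909 (median 0.56), with SLC19A2 at 0.42 ± 0.10 and 0.56 ± 0.14, none changed with METTL4-OE, and 1 rose and 1 fell with RP11-390F4.3-OE.

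Of 14 genes of the TCA cycle, which takes up the acetyl-CoA, 3 fell in FADU hypoxia (median −0.21) and 8 in BFTC909 hypoxia (median −0.47), and none rose. IDH3A, a subunit of NAD-dependent isocitrate dehydrogenase, was at −0.53 ± 0.06 and −1.22 ± 0.07. With METTL4-si, 1 rose and 5 fell in FADU (median −0.22) and none changed in BFTC909 (median −0.12). Set against normoxia, 10 of the 14 were lower in the METTL4-si libraries of FADU (median −0.51) and 10 in those of BFTC909 (median −0.59), and none rose, beside 13.5% and 23.2% of all genes that fell. With METTL4-OE 1 rose, and with RP11-390F4.3-OE 2 rose.

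The sister dehydrogenases include BCKDK, the kinase of the branched-chain complex and a relative of the PDKs, and PPM1K, its phosphatase. Of 7 tested, 1 fell in FADU hypoxia and 1 rose and 1 fell in BFTC909 hypoxia, 2 rose and 2 fell with METTL4-si in FADU and 1 rose in BFTC909, 1 rose and 2 fell with METTL4-OE, and 2 rose with RP11-390F4.3-OE. A count of 1 of 7 is near the shares of all genes in these comparisons. BCKDK was at −1.01 ± 0.10 with METTL4-si in FADU and rose by 0.38 ± 0.06 and 0.53 ± 0.06 with METTL4-OE and RP11-390F4.3-OE, while PPM1K rose by 0.89 ± 0.19 with METTL4-si in FADU and by 0.83 ± 0.15 in BFTC909. Of the genes known to regulate PDK genes, 8 were tested in FADU and 9 in BFTC909. In hypoxia 1 fell in FADU (ESRRA, an orphan nuclear receptor, −0.67 ± 0.11), and 3 rose and 3 fell in BFTC909, among them EPAS1, a HIF subunit, which rose by 0.85 ± 0.07. With METTL4-si 1 rose and 2 fell in FADU and 3 rose and 1 fell in BFTC909, with METTL4-OE 1 rose and 1 fell, and with RP11-390F4.3-OE 3 rose.

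Genes whose pattern was most like that of a gene of the set were listed for PDK1, PDK3 and PDP2, which changed in at least 2 of the 4 comparisons of hypoxia with normoxia and of METTL4-si with Scr-si in hypoxia. They were ranked by Pearson correlation of log2(CPM + 1), centred within each line, over the 12 knockdown libraries and 9822 genes, as a description. The points share lines and conditions and are not independent. For PDK1 these were ZNF292, HERC3 and KDM3A, an oxygen-dependent histone demethylase (r = 0.992, 0.989 and 0.988). For PDK3 they were FNBP1P1, P4HB, the beta subunit of prolyl 4-hydroxylase, and FOXN3 (r = 0.964, 0.963 and 0.959). For PDP2 they were FHOD1, SLCO3A1 and KIAA1549 (r = 0.967, 0.96 and 0.958).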

How the data were processed

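RNA was extracted with an RNeasy kit and made into rRNA-depleted stranded libraries. Per the labels, the authors used Trim Galore, HISAT2, HTSeq and edgeR with hg19, without versions. The deposited values are a signal, namely CPM after TMM scaling by the authors, in 4 tables scaled separately. In the gene rows of all 4 tables, 100.0% of values up to 1000 reads came out as whole reads (within 0.01 read), and count tests were run on the 3 replicated tables as alternatives. In the mutant table, 40.9% to 43.0% of a column lay in rows that name no gene and were left out of all steps, although these rows had entered the authors' scaling. Tables of the authors' own comparisons (fold changes and p-values) were not used.

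The main test was limma (3.58.1, trend option) on log2(value + 1) for genes that reached a value of 1 in 2 or more libraries, with 3 groups per table sharing 1 estimate of the spread and Benjamini-Hochberg adjustment over all genes tested. A gene changed at 1.3-fold or more with an adjusted p under 0.05. Differences between lines were contrasts over both knockdown tables. The spread differed between groups. Chi-square of the 2 libraries divided by its degrees of freedom was 28.9 for FADU METTL4-si, against 9.34 for Scr-si normoxia and 2.73 for hypoxia. In BFTC909 it was 23.9 for METTL4-si, against 2.11 for Scr-si normoxia and 3.89 for hypoxia. The shared estimate can therefore give too small an error for comparisons with METTL4-si, and too large an error for hypoxia against normoxia. Nothing says that replicates were separate cultures, so p-values measure only the spread between libraries. Alternatives were edgeR (4.0.16) and DESeq2 (1.42.0) on whole reads, other pseudocounts, filters, scalings and thresholds, a replicate block, and leaving out libraries. The scripts were tested on simulated data. The genes and lists were chosen with earlier results of these data known. All 10 genes of the set are named by rule, list genes where they passed the threshold (at most 4 per list and comparison), and for pattern likeness 3 genes per gene changed in at least 2 of 4 knockdown comparisons (hypoxia against normoxia and METTL4-si against Scr-si in hypoxia, in each line). Some genes of the cofactor list are not reported here by name, and the list's result in FADU hypoxia was left out.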

Additional observations from a re-analysis of the deposited data

Results flagged for a closer look

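Responses that differed between the cell lines by the test of the difference are listed here. The hypoxia response of PDK1 was lower in BFTC909 than in FADU by a log2 difference of −1.37, whereas that of PDK3 was higher by 1.07. The METTL4-si effect on PDK1 differed by 1.14, being a smaller fall in BFTC909, and that on MPC2 by −0.50, being a larger fall in BFTC909. All 4 differences stayed past the threshold in the 22 alternatives that kept it. A 2-fold threshold left 1 difference of METTL4-si effects, since that of MPC2 (1.41-fold) fell short of it. No fall of METTL4 RNA was measured in FADU after METTL4-si, and its fall in BFTC909 did not pass the test (log2 change −0.36). The part of METTL4 RNA in the METTL4-si differences was not tested.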

How the results depend on the processing

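Over the alternatives that kept the thresholds, 415 recalculations of the 25 called changes of single genes of the set stayed called. A further 25, in 6 of these changes, did not, and none turned its direction. Recalculations with another threshold were not part of these, and those at 2-fold are given below as counts. Of the differences that were not called, 24 recalculations passed. Counts of changed genes of the set moved by over 1.5 times in these cases, and the cause was not tested. In FADU hypoxia the count was 1 (reported 2) with pseudocount 5, with no trend, and without the 3 libraries with markers of other cells. For FADU METTL4-si against normoxia (reported 2) it was 1 with pseudocount 5, with only the groups compared, with no trend and with median-centred libraries. The count also moved without those 3 libraries, a fit with 1 library left in each group compared. For BFTC909 METTL4-si (reported 3) it was 5 with median-centred libraries. It also moved without those 3 libraries, with 1 METTL4-si library left. In the mutant clones it was 1 (reported 2) with pseudocount 5, where MPC1 dropped out. A 2-fold threshold left 1 in FADU hypoxia, 1 with METTL4-si in FADU, 0 for FADU METTL4-si against normoxia, 1 for BFTC909 METTL4-si, 1 for it against normoxia, 1 each with METTL4-OE and RP11-390F4.3-OE and 1 for the difference of METTL4-si effects. Of the pathway genes, 2-fold left 2 in FADU hypoxia, 5 with FADU METTL4-si, 3 in BFTC909 hypoxia and 2 each with BFTC909 METTL4-si, METTL4-OE and RP11-390F4.3-OE, pseudocount 5 left 7 with METTL4-OE, and 16 changed in FADU hypoxia without the 3 libraries. Per canonical kb the PDK1 share was 11.4% and 40.4% in FADU normoxia and hypoxia and 69.0% and 70.4% in BFTC909, and the kinase to phosphatase ratio 0.622 and 1.29 in FADU and 0.242 in BFTC909 normoxia.

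Leaving out 1 library at a time gave 1 to 2 genes of the set in FADU hypoxia, 1 to 3 with FADU METTL4-si, 0 to 2 for it against normoxia, 3 to 4 in BFTC909 hypoxia, 3 to 5 with BFTC909 METTL4-si and 3 to 5 for it against normoxia. With METTL4-OE it gave 2, with RP11-390F4.3-OE 3, and for each difference between lines 2. Pathway genes ranged from 4 to 12 and 9 to 26 in FADU (hypoxia and METTL4-si), 17 to 29 and 7 to 21 in BFTC909, 10 to 12 with METTL4-OE and 12 to 13 with RP11-390F4.3-OE. With 1 library left in a group, it was assumed to vary like the others.

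Replicates share only a number, and with 2 libraries per group no pairing is stated. With the replicate number as a block the genes of the set that changed were 2, 3 and 2 in FADU (hypoxia, METTL4-si, METTL4-si against normoxia), 3, 4 and 4 in BFTC909 (PDK3 added in METTL4-si, adjusted p = 0.0273, and MPC1 against normoxia, −0.49, adjusted p = 0.0173), 2 and 3 with METTL4-OE and RP11-390F4.3-OE, and 2 for each difference between lines, and the pathway genes 12 and 21 in FADU, 29 and 16 in BFTC909, 12 and 13 in overexpression. Replicate differences correlated between groups from −0.13 to 0.54 over genes. Depth left 92 to 331 reads for PDK3 in BFTC909, which limits the precision of its changes.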
